A study of Homo sapiens with 47 samples.

Results

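H3K27ac and RNA polymerase II (RNAPII) ChIP-seq were compared between Ishikawa cells that received dCas9-VP16(10x) with the gRNAs of Pool 2 and Ishikawa cells that received dCas9-VP16(10x) with gRNAs for the IL1RN promoter. The comparison holds 8 of the 47 samples of the series, chosen by construct, antibody and target in the labels, with 2 samples per group and antibody. Ishikawa is an established line of human endometrial carcinoma. All groups were kept in hormone-depleted media, so that ER was without its ligand, and were transfected with the plasmids of the fusion and of the gRNAs. The control group therefore carried the same activator, sent to the promoter of IL1RN, which encodes the interleukin-1 receptor antagonist. The plasmids were transient, so each library came from a population in which the dose per cell was not measured. Nothing in the labels says whether the samples of a group came from separate cultures, and the p-values measure only the spread between these samples.

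Estrogen receptor α (ER) is a ligand-activated transcription factor that acts in endometrial cells largely from promoter-distal sites, here called ER-binding sites (ERBSs). VP16 is a viral activation domain that recruits coactivators, histone acetyltransferases and the general transcription machinery, and dCas9 carries it to the DNA that a gRNA matches. H3K27ac marks active promoters and enhancers, whereas RNAPII is found at promoters, along transcribed genes and at many active enhancers. The question of the comparison was whether an activator placed at ERBSs, with no active ER, changes acetylation and RNAPII at those sites, at the promoters of the nearby genes and elsewhere in the genome.

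Each pool held gRNAs for 1 ERBS near each of 4 genes. MMP17 encodes a membrane-anchored matrix metalloproteinase, CISH an inhibitor of cytokine signalling of the SOCS family, FHL2 a LIM-domain coregulator and HES2 a transcriptional repressor of the Hairy/Enhancer of split family. The labels list MMP17-1, CISH-2, FHL2-3 and HES2-1 for Pool 2. An assignment made from earlier results of these data puts FHL2-1 and HES2-3 in the pool in place of FHL2-3 and HES2-1, so all 6 sites are described. Values at FHL2-1 and HES2-3 are therefore no independent test of that assignment.

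The gRNA targets of the 3 sites with the highest H3K27ac ratios are shown because the regions outside the sites are compared with them further on. They were read from the study's gRNA list and matched to hg19, with the 3-base PAM in capitals. All 24 gRNAs of the 6 sites matched inside the region that carries their name. MMP17-1 (chr12:132283885-132285885) is intergenic, with its centre 28.1 kb upstream of the MMP17 start site, and its gRNAs span 132284740 to 132284908.
MMP17peak1_47: aggtccttacaccagaaatgAGG
MMP17peak1_154: agggtccggccacctggagtTGG
MMP17peak1_254: ccagggagtgtccttcctgtGGG
MMP17peak1_300: ctgacaatggaacttgacctCGG

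CISH-2 (chr3:50637663-50639663) is intergenic and lies 10.5 kb downstream of the CISH start site.
CISHpeak2_468: agctcagaagtggcgggtggAGG
CISHpeak2_523: actggttgctcaacgtgatcTGG
CISHpeak2_550: gagaagcgttgaaggcagtgTGG
CISHpeak2_614: cgccgcttccaagaactcagAGG

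FHL2-1 (chr2:106019419-106021419) is intergenic and lies 4.91 kb upstream of the FHL2 start site.
FHL2peak1_423: tgagctcatcctaatcccccTGG
FHL2peak1_496: ttagggtaacgaacatagggCGG
FHL2peak1_579: tgttcctcccactcaaacctTGG
FHL2peak1_691: tcataaatgctggcgggaagGGG

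HES2-3 (chr1:6506685-6508685) lies in an intron of ESPN, 27.7 kb upstream of the HES2 start site. HES2-1 (chr1:6482596-6484596) is intergenic and 3.62 kb upstream of it, and FHL2-3 (chr2:106138390-106140390) is intergenic and 124 kb upstream of FHL2. The estrogen response element to which ER binds was searched for as GGTCA, any 3 bases and TGACC, a palindrome that reads alike on both strands. The best match in FHL2-3 had 0 mismatches and overlapped a gRNA target, and the best match in MMP17-1 had 1 mismatch and lay 403 bp from the nearest gRNA target. They are shown with the element in capitals, to show the closest matches beside the gRNA targets. A match is a description of the letters, and ER binding was not measured in these samples.
MMP17-1, chr12:132284325-132284337: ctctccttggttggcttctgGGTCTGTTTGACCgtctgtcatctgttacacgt
FHL2-3, chr2:106139328-106139340: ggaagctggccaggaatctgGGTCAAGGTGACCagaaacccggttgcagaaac

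Of the 12 ERBSs, 5 held a match with 0 or 1 mismatch, whereas 5.12% of 14955 windows of 2001 bp at H3K27ac regions of the Pool 2 samples did. CISH-2, FHL2-1, HES2-1 and HES2-3 held no such match.

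The deposited values are a normalized signal in 23 regions, in which 1 read of a library has a fixed value. The 4 H3K27ac libraries held 2237 to 5596 reads in the 23 regions and the 4 RNAPII libraries 1637 to 2624. The H3K27ac library IL1RN replicate 1 stood apart from the other 3. Its peaks had a median fold enrichment of 27.4, compared with 10.5 to 12.3 in the others. Pool 2 replicate 1 and IL1RN replicate 1 of H3K27ac carried the same number at the start of their peak names and the replicates 2 carried none. Ratios are therefore also given within replicate 1 and within replicate 2. The labels do not say what this peak-name number stands for. Counting noise alone covered the differences between both RNAPII libraries of IL1RN (p = 0.773 by chi-square on their reads in the regions), and they were counted as 1 sample in the RNAPII fits. The other 18 of 19 replicate pairs of the series differed by more than that. The RNAPII libraries of IL1RN and Pool 2 replicate 1 shared a peak-name number, and Pool 2 replicate 2 carried none.

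Mean H3K27ac at MMP17-1, FHL2-1 and CISH-2 was 3.75 to 8.06 times as high in the Pool 2 samples as in the IL1RN samples, without overlap of the groups, but no region passed the test across all regions. At MMP17-1 the signal was 1.21 and 2.77 in the Pool 2 samples and 0.138 and 0.357 in the IL1RN samples. The groups did not overlap, and the ratio of the means (1.99 ± 1.11 and 0.247 ± 0.154, SD, n = 2 each) was 8.06. FHL2-1 had 1.18 and 2.78 in the Pool 2 samples against 0.069 and 0.479 in the IL1RN samples, a ratio of 7.23. CISH-2, which also had a peak in 5 of the 6 other dCas9-VP16(10x) samples, had 3.06 and 4.86 against 0.383 and 1.73, a ratio of 3.75. All 4 cross-group ratios were above 1 at each of these sites. The lowest, Pool 2 replicate 1 over IL1RN replicate 2, was 0.82 on the log2 scale at CISH-2 and 1.30 at FHL2-1.

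The remaining sites described for the pool did not separate the groups. HES2-3 was strongly acetylated throughout, with 2.81 and 2.52 in the Pool 2 samples and 5.74 and 2.15 in the IL1RN samples. HES2-1 had 2.31 and 3.48 against 0.904 and 3.29. FHL2-3 had hardly any signal in either group, with 0.0596 and 0.0539 against 0.0188 and 0.111. FHL2-3 and HES2-1 are the sites that the labels list, and their ratios were 0.877 and 1.38.

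**Figure D1:**
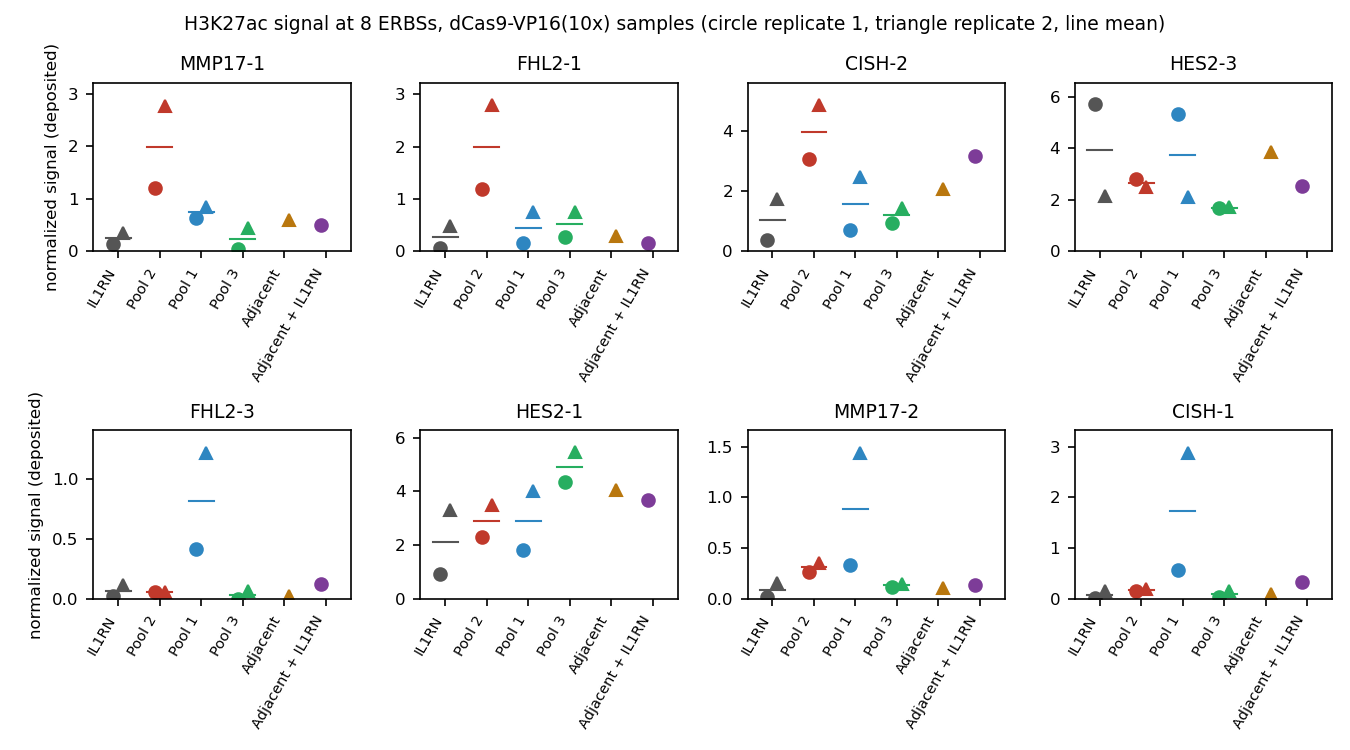
H3K27ac signal (y axis, normalized by the authors, linear scale from 0) in each dCas9-VP16(10x) sample at 8 ERBSs, by gRNA pool (x axis). Circles are replicate 1, triangles replicate 2 and lines the mean of 2 samples. The Pool 2 samples are the highest at MMP17-1 and FHL2-1, whereas FHL2-3 is highest in the Pool 1 samples and HES2-1 in the Pool 3 samples.

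The IL1RN promoter (chr2:113874426-113876426), where the control gRNAs were sent, went the other way. Its H3K27ac signal was 0.408 and 4 in the IL1RN samples and 0.0728 and 0.162 in the Pool 2 samples. The groups did not overlap, but the IL1RN samples differed widely from each other. The 9 genes of the interleukin-1 cluster were otherwise without H3K27ac at their promoters. Of their promoters, 8 had no peak in any of the 4 samples and that of IL1RN had a peak only in IL1RN replicate 2, at a fold enrichment of 32.

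In the limma fit with all 20 H3K27ac samples, 0 of 23 regions (0%) passed an adjusted p of 0.05, and 5 had an unadjusted p under it. These were FHL2-1 (log2 difference 3.27, SE 1.28), MMP17-1 (3.02, SE 1.13), MMP17-2 (2.36, SE 1.08), CISH-2 (2.24, SE 1.03) and the IL1RN promoter (-3.51, SE 1.64). The adjusted p from limma was 0.229 at each. A fit with the peak-name number as a term was an alternative added after the data were seen. In it, 5 regions (21.7%) were higher in the Pool 2 samples and the IL1RN promoter was lower. FHL2-1 had the smallest adjusted p from limma, 0.000287, followed by MMP17-1 with 0.0018 and the IL1RN promoter with 0.00294. FHL2-1 was placed in the pool from these data, so its value in either fit is no independent support for that placement. CISH-2 had 0.00587, MMP17-2 had 0.0119 and CISH-1 had 0.0357. Libraries without such a number were treated as 1 batch, although they may come from several.

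The 2 regions called higher in that fit beside the sites described for the pool are ERBSs that the labels list for Pool 1. MMP17-2 lies 3.78 kb from MMP17-1 and had 0.265 and 0.357 in the Pool 2 samples against 0.0188 and 0.156 in the IL1RN samples. CISH-1 lies 4.05 kb from CISH-2 and had 0.152 and 0.187 against 0.00628 and 0.156. The value of CISH-1 rests on IL1RN replicate 1, in which the region held 1 read. Without that sample the log2 difference was 0.11 at CISH-1 and 0.96 at MMP17-2, compared with 1.91 at FHL2-1, 2.35 at MMP17-1 and 1.15 at CISH-2.

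The ratios within each replicate were above 1 at MMP17-1, FHL2-1 and CISH-2 in both, whereas other regions differed between the replicates. In replicate 1 the log2 ratio was 4.02 at FHL2-1, 3.10 at MMP17-1 and 2.98 at CISH-2. In replicate 2 it was 2.53, 2.95 and 1.49, the 3 highest of the 23 regions. In replicate 1, CISH-1 with 3.91, MMP17-2 with 3.55 and CISH-3, at 0 reads in the control, lay between FHL2-1 and MMP17-1. The 6 ERBSs that are in neither list for Pool 2 had a median log2 ratio of 2.72 in replicate 1 and 0.27 in replicate 2. The adjacent regions, which are no ERBSs, had 1.70 and -0.72. The promoters of the 4 genes had a median of -1.63 in replicate 1 and 0.43 in replicate 2. The part of IL1RN replicate 1, the library with the highest fold enrichment, in the ratios of replicate 1 was not tested.

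**Figure D2:**
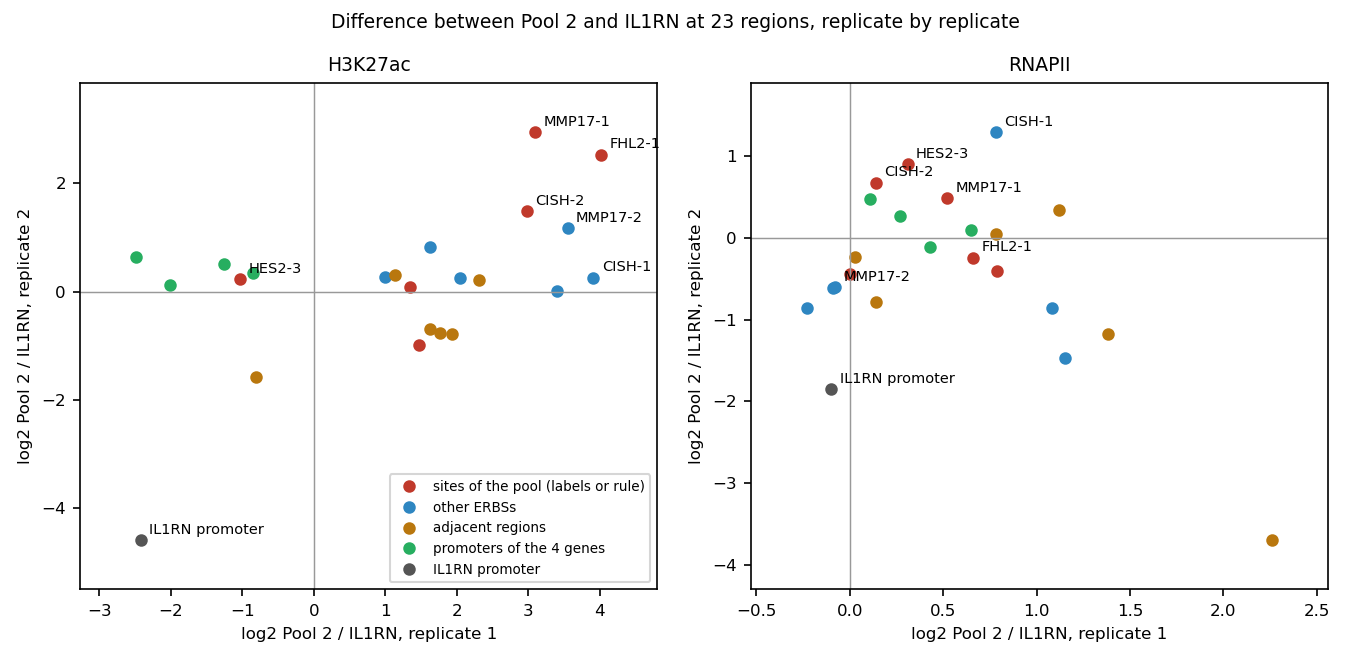
Log2 ratio of Pool 2 to IL1RN in replicate 1 (x axis) and replicate 2 (y axis) at the 23 regions, for H3K27ac (left) and RNAPII (right), coloured by kind of region. For H3K27ac, MMP17-1 and FHL2-1 lie at the upper right with log2 ratios from 2.53 to 4.02 in both replicates, while the promoters of the 4 genes lie left of 0.

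Over the 23 regions, both Pool 2 samples were above both IL1RN samples at 6 (26.1%) for H3K27ac and below both at 2 (8.70%). The 6 were MMP17-1, FHL2-1, CISH-2, MMP17-2, MMP17-A and CISH-3, so 3 of the 6 sites described for the pool and 3 other regions separated the groups. CISH-3 held only 0 to 7 reads in each of the 4 samples. The 2 lower regions were the IL1RN promoter and MMP17-B, which held no peak in these samples.

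The other dCas9-VP16(10x) samples gave a second comparison. The Pool 2 samples were the 2 highest of the samples not targeted to the region at 3 of 23 regions (13.0%), which were MMP17-1, FHL2-1 and MMP17-2. At MMP17-1 the highest of the 8 other samples had 0.847 and the lowest 0.0399 (exact permutation test, two-sided p = 0.0444, the smallest that 2 against 8 samples can give, adjusted p = 0.511 over the 23 regions of the antibody). At FHL2-1 the highest of 6 other samples had 0.746 (exact permutation p = 0.0714, the smallest possible, adjusted p = 0.511). FHL2-1 was placed in the pool from these data, so this p is no independent support for it. The 6 samples leave out those of Pool 3. The Pool 3 samples, to which the labels assign FHL2-1, had 0.28 and 0.755 at that region, below both Pool 2 samples. Pool 3 replicate 1 of H3K27ac held only 348 reads in the 23 regions, and 1 read had a value of 0.03995, so its values are coarse. At CISH-2, 1 sample with gRNAs for the adjacent regions and IL1RN had 3.15, above Pool 2 replicate 1, and the exact permutation p was 0.0889.

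The sites also go against the labels in other pools. FHL2-3 had 0.411 and 1.22 in the Pool 1 samples, above both Pool 2 samples. HES2-1 had 4.35 and 5.48 in the Pool 3 samples, the highest of the 10 samples. Which gRNAs of FHL2 and HES2 each pool held cannot be told apart from an exchange of names by these values.

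RNAPII ratios of Pool 2 to IL1RN at the sites lay between 0.865 and 1.56, and no region passed the test. The 2 IL1RN values at each region come from the pair counted as 1 sample, so a lack of overlap rests on 1 control. At MMP17-1 the RNAPII signal was 1.62 and 1.55 in the Pool 2 samples and 1.13 and 1.1 in the IL1RN samples, a ratio of 1.42 without overlap. HES2-3 had 1.86 and 2.73 against 1.5 and 1.45, a ratio of 1.56. CISH-2 had 0.794 and 1 against 0.72 and 0.621, a ratio of 1.34. FHL2-1, with low signal, had 0.303 and 0.157 against 0.191 and 0.186, and the groups overlapped. FHL2-3 had a ratio of 1.24. HES2-1 had 1.32 and 0.986 in the Pool 2 samples against 1.33 and 1.34 in the IL1RN samples, so both Pool 2 samples were the lower ones.

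**Figure D3:**
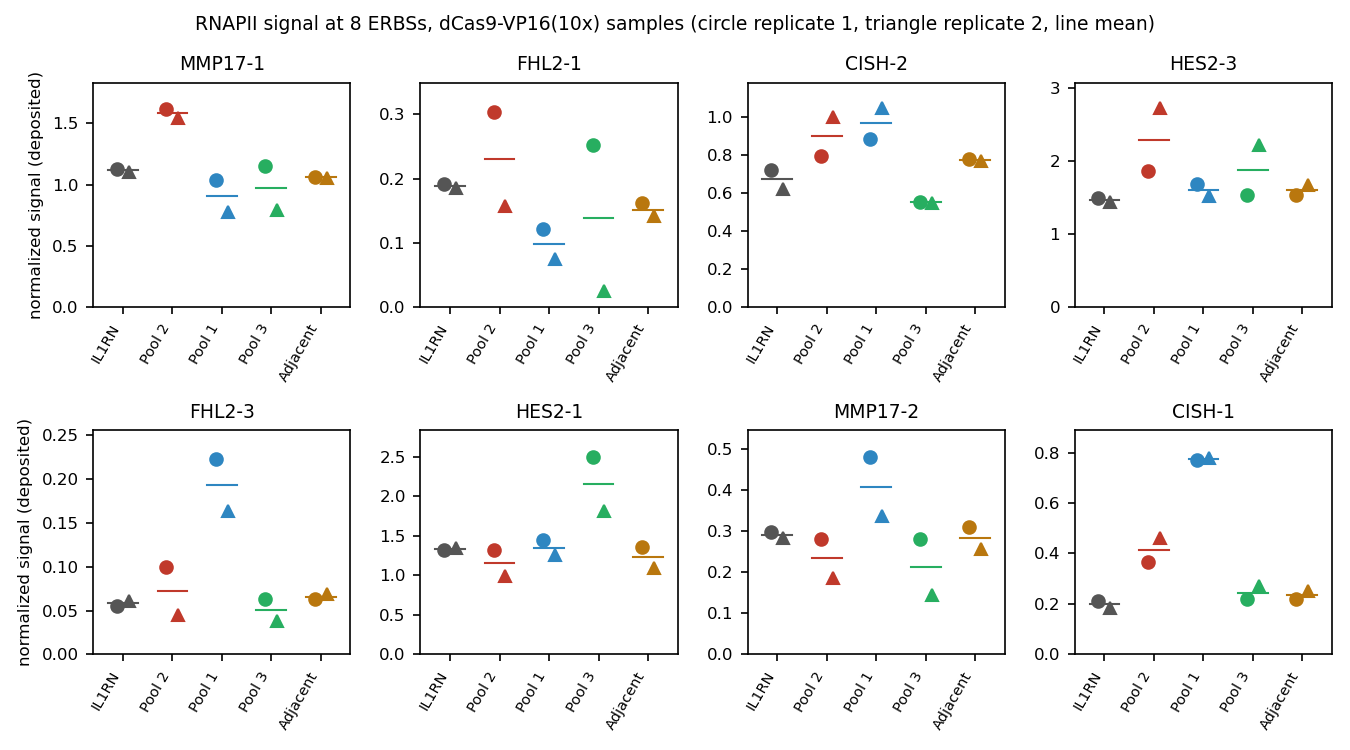
RNAPII signal (y axis, normalized by the authors, linear scale from 0) in each dCas9-VP16(10x) sample at the same 8 ERBSs, by gRNA pool. Circles are replicate 1, triangles replicate 2 and lines the mean. The Pool 2 samples are the highest at MMP17-1 (1.62 and 1.55), while CISH-1 is highest in the Pool 1 samples.

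The limma fit of RNAPII, with the IL1RN pair counted as 1 sample, called 0 of 23 regions (0%), and 0 had an unadjusted p under 0.05. The log2 difference was 0.50 (SE 0.56) at MMP17-1, 0.61 (SE 0.62) at HES2-3, 0.41 (SE 0.62) at CISH-2 and 0.21 (SE 0.95) at FHL2-1, and the adjusted p from limma was 0.922 at every region. The fit with the peak-name number as a term called 0 regions higher (0%) as well. Both Pool 2 samples were above both IL1RN samples at 8 of 23 regions (34.8%) and below both at 5 (21.7%). With the IL1RN pair counted as 1 sample, these counts compare 2 samples with 1, so they are a description. The 8 were MMP17-1, HES2-3, CISH-2, CISH-1, CISH-A and the promoters of CISH, FHL2 and HES2. The 5 were MMP17-2, MMP17-3, HES2-1, HES2-2 and the IL1RN promoter, where the signal was 0.246 and 0.0822 in the Pool 2 samples and 0.263 and 0.306 in the IL1RN samples.

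Among dCas9-VP16(10x) samples not targeted to the region, the RNAPII signal of the Pool 2 samples was the highest at MMP17-1, CISH-1 and CISH-A, which are 3 of 23 regions (13.0%). MMP17-1 had at most 1.15 in the 7 other samples (exact permutation test, two-sided p = 0.0556, the smallest possible, adjusted p = 0.511). CISH-1 had 0.366 and 0.463 in the Pool 2 samples against 0.211 and 0.186 in the IL1RN samples, and CISH-A, a region centred in an intron of CISH that is no ERBS, had 0.282 and 0.246 against 0.127 and 0.194. CISH-1 lies between CISH-2 and CISH-A, and the end of CISH-A overlaps the CISH promoter region, so that their signals share reads. Their exact permutation p was 0.0952, the smallest that 2 against 5 samples can give.

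The promoters of the 4 genes showed no call for either antibody. RNAPII at the CISH promoter was 0.909 and 1.26 in the Pool 2 samples and 0.844 and 0.906 in the IL1RN samples. The FHL2 promoter had 0.575 and 0.5 against 0.366 and 0.466, and the HES2 promoter 1.26 and 1.37 against 1.05 and 1.14. The MMP17 promoter had 0.392 and 0.284 against 0.291 and 0.306 and overlapped. The RNAPII ratios of these promoters lay between 1.13 and 1.29, compared with a median of 1.24 over all 23 regions.

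H3K27ac at the same promoters overlapped between the groups. The MMP17 promoter, which had no H3K27ac peak in any of the 4 samples, had 0.0596 and 0.174 in the Pool 2 samples and 0.351 and 0.111 in the IL1RN samples. The CISH promoter had 0.556 and 0.734 against 1.32 and 0.512, the FHL2 promoter 0.589 and 0.56 against 1.07 and 0.438, and the HES2 promoter 0.814 and 2.23 against 3.28 and 2.05. IL1RN replicate 1 was the highest of the 4 samples at each promoter.

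The second activator, dCas9-p300(core), carries the catalytic core of a histone acetyltransferase, and its Pool 2 samples were measured with their own IL1RN samples. H3K27ac at MMP17-1 was 0.898 and 3.48 in the dCas9-p300(core) Pool 2 samples and 0.229 and 0.387 in their controls, a ratio of 7.11. FHL2-1 had 0.939 and 5.26 against 0.146 and 0.775, a ratio of 6.73. CISH-2 had 2.44 and 5.68 against 0.277 and 1.48, a ratio of 4.62. The difference between the constructs was 0.47 (SE 1.60) at MMP17-1, 0.57 (SE 1.80) at FHL2-1 and -0.29 (SE 1.45) at CISH-2 on the log2 scale. The fit called 0 of 23 regions (0%) for a difference between constructs with H3K27ac and 0 of 23 (0%) with RNAPII, with 0 at an unadjusted p under 0.05 for each antibody. The standard errors allow differences of several-fold in either direction, so the constructs were not shown to act alike.

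The peak lists extend the comparison to the genome. In H3K27ac, 14955 regions were in both Pool 2 samples, and 767 of them (5.13%) were in neither IL1RN sample. In the other direction, 18 of 10308 regions (0.175%) were in both IL1RN samples and in neither Pool 2 sample. The numbers of peaks per sample were 19860 and 32052 for Pool 2 and 16463 and 25160 for IL1RN. The 767 regions were mostly distal and weak, with 20.5% within 1 kb of a start site compared with 63.6% of the 14955, and a median fold enrichment of 8.79 compared with 15. No peak in any of the 6 other dCas9-VP16(10x) samples was listed for 82 of them, whereas 320 (41.7%) were peaks in at least 3 of the 6. Neither was counted for the 14955, so these counts have no background. Of the 6, Pool 3 replicate 1 held only 348 reads in the 23 regions. Each list weighs on the count of 767, which was 7999 without Pool 2 replicate 1, 2456 without Pool 2 replicate 2, 1462 without IL1RN replicate 1 and 4344 without IL1RN replicate 2. The count of 18 was 31 without Pool 2 replicate 1, 1021 without Pool 2 replicate 2, 115 without IL1RN replicate 1 and 3107 without IL1RN replicate 2.

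MMP17-1 and FHL2-1 were among the 5 of these regions with the highest mean fold enrichment. The region at MMP17-1 (chr12:132283729-132285681) had 15.9 and 36.8 in the Pool 2 samples, and that at FHL2-1 (chr2:106019694-106021881) had 13.6 and 28.3. A peak was also listed at MMP17-1 in 3 of the 6 other samples and at FHL2-1 in 1. CISH-2 had peaks of 24.9 and 42.2 in the Pool 2 samples but also a peak of 13.7 in IL1RN replicate 2, and HES2-3 had peaks in all 4 samples. The highest region of all lay outside the targeted loci, 1421 bp from a start site of GTF2IRD1, which encodes a transcription factor of the TFII-I family (chr7:73865660-73866699, fold enrichment 30.7 and 23.2). Of the 6 other samples, 1 with gRNAs for the adjacent regions and IL1RN had a peak there, at 4.86. The fourth, nearest to ADAM21, which encodes a disintegrin and metalloprotease, had 18.6 and 21.1 and was also a peak in 4 of the 6 other samples. The fifth (chr14:103820438-103821405), 19152 bp from the start site of EIF5, a translation initiation factor, had 18.5 and 19.1 and was a peak in none of the 6 other samples.

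The GTF2IRD1 and EIF5 regions each held a partial match to a gRNA of the pool. The 767 regions were searched, in windows of 2001 bp, for the 12 target bases next to the PAM followed by NGG, on both strands. With the 16 gRNAs of MMP17-1, CISH-2, FHL2-1 and HES2-3, 4 of 767 regions held a match (0.522%), compared with 19 of the 14955 regions in both Pool 2 samples (0.127%). These 4 were MMP17-1, FHL2-1 and the regions of GTF2IRD1 and EIF5, which are ranks 2, 3, 1 and 5 by mean fold enrichment. The gRNAs were designed for MMP17-1 and FHL2-1, so their matches were fixed in advance and raise the share of 0.522%. CISH-2 and HES2-3, also targets of these gRNAs, had peaks in both Pool 2 samples as well. The shares without the targets were not computed. The 24 gRNAs of the 6 other ERBSs gave 0 of 767 and 12 of the 14955 (0.0802%). Their own sites are not among the 767, so none of their matches there was fixed in advance. With the 16 gRNAs of the sites in the labels, 3 of 767 regions matched (0.391%), compared with 15 of the 14955 (0.1%). The sites in the GTF2IRD1 and EIF5 regions are shown with the bases that match the gRNA, and the PAM, in capitals.
GTF2IRD1 region, chr7:73866644-73866666, plus strand: aaatctccCCAAGAACTCAGAGG
EIF5 region, chr14:103820908-103820930, plus strand: CgcttAtaGGAACTTGACCTAGG

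The first site shares 12 bases next to the PAM with CISHpeak2_614 and has 8 mismatches, and the second shares 12 bases with MMP17peak1_300 and has 6. Over the whole gRNA length, the best match of the GTF2IRD1 region had 6 mismatches, to MMP17peak1_47, and the median of the best match was 7 mismatches over the 767 regions and over the 14955. Of the 767, 2 regions (0.261%), MMP17-1 and FHL2-1, had a match with up to 4 mismatches, compared with 69 of the 14955 (0.461%). Counted from 1 at the 5′ end of the gRNA target, with the base of the gRNA first, the substitutions were C1A, G2A, C3A, C4T, G5C, C6T, T7C and T8C in the GTF2IRD1 region and T2G, G3C, A4T, C5T, A7T and T8A in the EIF5 region. Both sites are intergenic and lie inside the H3K27ac region. The length of the match and the search itself were chosen with these regions in view, so the count is a description. With 10 bases in place of 12, 10 of the 767 regions matched (1.3%, compared with 1.26% of the 14955), and with 14 bases only MMP17-1 and FHL2-1.

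**Figure D4:**
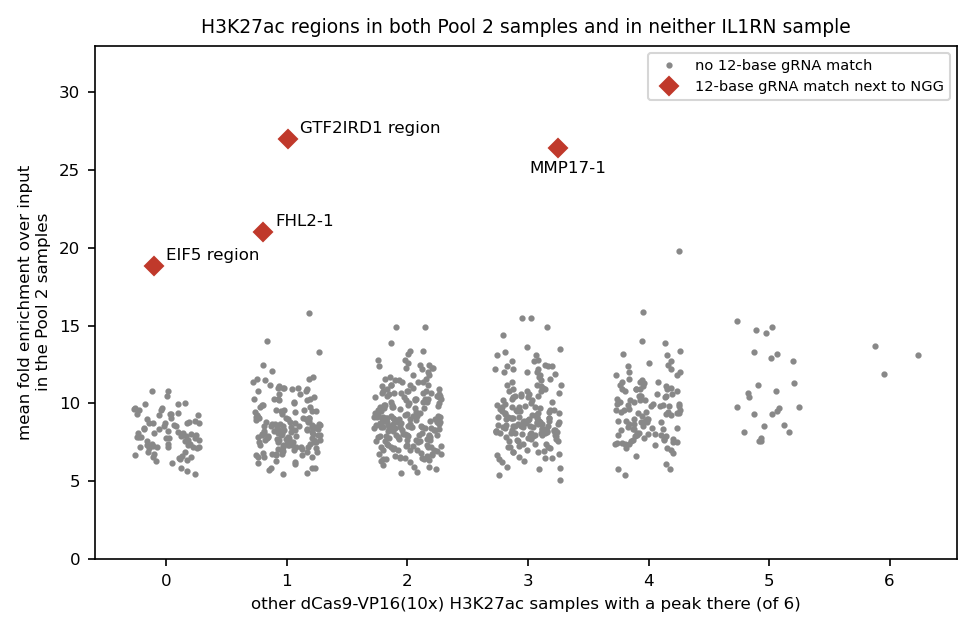
The 767 H3K27ac regions found in both Pool 2 samples and in neither IL1RN sample, by the number of the 6 other dCas9-VP16(10x) H3K27ac samples with a peak there (x axis, points spread sideways to show them) and the mean fold enrichment in the Pool 2 samples (y axis, linear scale from 0). Diamonds are the 4 regions with a 12-base gRNA match next to NGG, at mean fold enrichments of 18.8 to 27.

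HA ChIP-seq, which reads the position of the tagged dCas9, was not part of the comparison but covers the same gRNAs in the samples that received those of all ERBSs. The GTF2IRD1 region had an HA peak with a fold enrichment of 17.4 and 16.9 in those 2 samples, and the EIF5 region one of 11.9 and 12. An HA peak in both of those samples was listed at 47 of the 767 regions, which was not counted for the 14955. An HA peak in at least 1 of them was listed at 211 of the 767 and at 11130 of the 14955, so an HA peak at an H3K27ac region was common. Neither region had an HA peak in the 2 samples with gRNAs for adjacent regions or in the sample with gRNAs for IL1RN. The summits of the HA peaks lay 62 and 124 bp from the partial match in the GTF2IRD1 region and 15 and 136 bp from it in the EIF5 region. At the intended sites the HA fold enrichment in the same samples was 34.3 and 69.4 at MMP17-1, 39.1 and 86.8 at FHL2-1 and 71.2 and 105 at CISH-2. The lists of the control samples held weaker HA peaks at some of these sites, with 6.25 at MMP17-1 and 10 at CISH-2 in the sample with gRNAs for IL1RN. In the samples with gRNAs for adjacent regions there was a peak of 9.34 at MMP17-1 in replicate 2, and peaks of 11.9 and 39.3 at CISH-2. The 2 HA samples of dCas9-p300(core) with gRNAs for all ERBSs had no peak in the GTF2IRD1 or EIF5 region, but replicate 1 had none at MMP17-1, CISH-2, FHL2-1 or HES2-3 either. With dCas9-p300(core), Pool 2 replicate 1 had an H3K27ac peak of 7.05 in the GTF2IRD1 region, and no dCas9-p300(core) sample of Pool 2 or IL1RN had a peak in the EIF5 region. The HA samples received the gRNAs of all ERBSs at once, so the gRNA behind an HA peak cannot be told apart from these data.

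**Figure D5:**
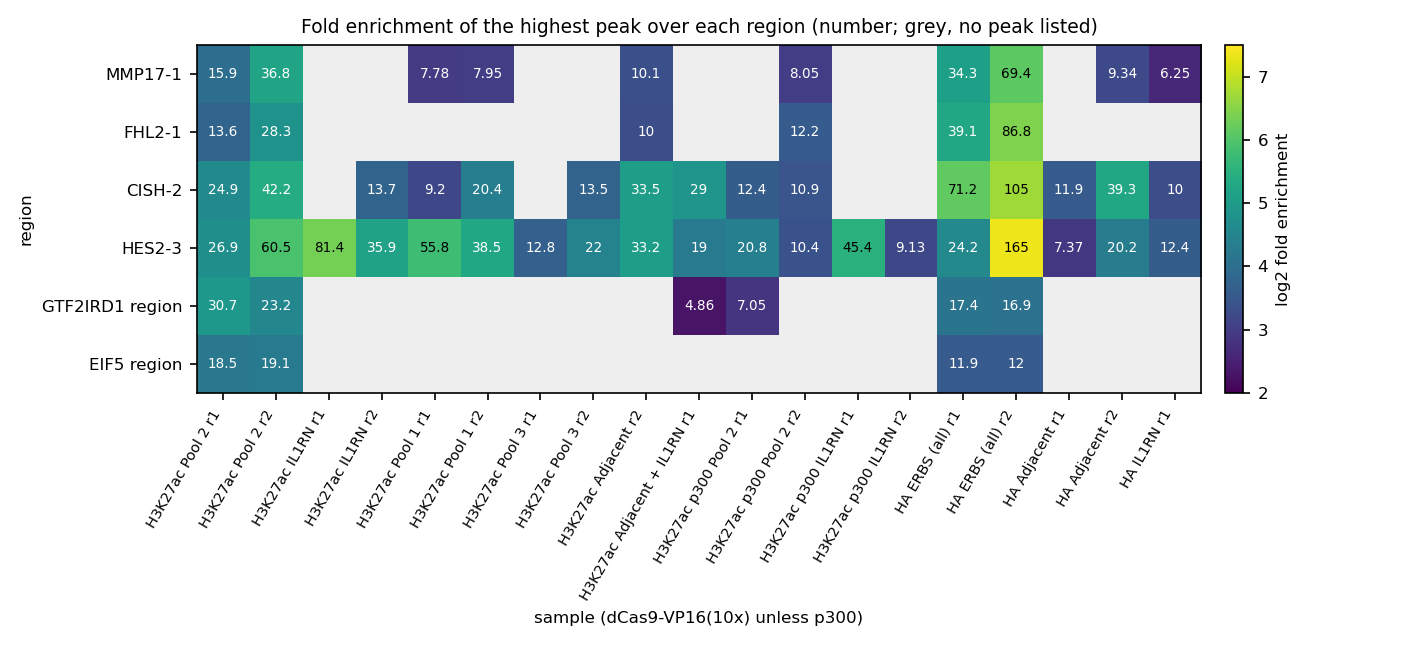
Fold enrichment of the highest peak over 4 targeted sites and 2 other regions (rows) in H3K27ac and HA samples (columns). Colour is the log2 fold enrichment, the number in each cell is the fold enrichment, and grey means that no peak is listed. The GTF2IRD1 and EIF5 regions have H3K27ac peaks of 18.5 to 30.7 in the Pool 2 samples and HA peaks of 11.9 to 17.4 in the samples with gRNAs for all ERBSs.

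Near the targeted loci, 4 of the 767 regions lay within 250 kb of a site of the pool or of the IL1RN promoter. Beside MMP17-1 and FHL2-1 these were a region 2528 bp from MMP17-1 (chr12:132280645-132281357), with fold enrichments of 18.4 and 9.57, and a region near PAX8 at 98511 bp from the IL1RN promoter, with 10.3 and 12.1. PAX8 encodes a transcription factor of Müllerian epithelia. Of the 38 protein-coding genes with a start site within 250 kb of a site of the pool, 23 had an H3K27ac peak at a promoter in all 4 samples, 6 had none in any, and 0 had one in both Pool 2 samples and in neither IL1RN sample.

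Of the 18 regions found only in the IL1RN samples, 15 (83.3%) lay within 1 kb of a start site. Of all 10308 regions in both IL1RN samples, 74.6% did. The 5 highest lay near GFOD1, IQSEC1, NFATC1, CDKN1C and EGR2, with fold enrichments of 46.8 to 61.2 in IL1RN replicate 1 and 7 to 8.7 in replicate 2. All 18 were peaks in at least 3 of the 6 other dCas9-VP16(10x) samples, which was not counted for the 10308.

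In RNAPII, 0 of 11475 regions in both Pool 2 samples (0%) were absent from both IL1RN samples. In the other direction, 9694 of 27086 regions (35.8%) were in both IL1RN samples and in neither Pool 2 sample. The lists of the Pool 2 samples were shorter, with 16041 and 19772 peaks against 35592 and 33212, and the part of this difference in the counts was not tested. The count of 0 was 2712 without Pool 2 replicate 1, 21 without Pool 2 replicate 2, 8 without IL1RN replicate 1 and 6 without IL1RN replicate 2, and the count of 9694 was 16499 without IL1RN replicate 2. The 5 highest of the 9694, near COL11A1, SSUH2, ARHGEF28, DHRS3 and TMEM167A, had fold enrichments of 23.9 to 32.2 and were peaks in 3 or 4 of the 6 other samples. Within 250 kb of a site of the pool or of the IL1RN promoter there were 27, among them 3 between 1488 and 3721 bp from MMP17-1 and 1 at HES2-2. RNAPII peaks at MMP17-1 itself were in all 4 samples, with fold enrichments of 6.33 and 10.8 in the Pool 2 samples and 8.98 and 9.08 in the IL1RN samples.

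The fold enrichment of peaks shared by all 4 samples was compared with limma after centring each sample on its median. For H3K27ac, 0 of 8966 regions (0%) passed an adjusted p of 0.05, and 39 had an unadjusted p under it. For RNAPII, 0 of 11072 (0%) passed and 110 had an unadjusted p under 0.05. Without the H3K27ac sample IL1RN replicate 2, which leaves only the sample that stood apart as control, 2405 regions were called higher and 157 lower. Without the RNAPII sample Pool 2 replicate 1, 99 were called higher and 330 lower. In that fit the IL1RN pair was kept as 2 samples, so the only spread within a group was that of this pair, whose differences in the 23 regions counting noise covers.

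The promoters of marker genes of the labelled cell type were acetylated in part. Among the epithelial genes, 10 had an H3K27ac peak at a promoter in all 4 samples, with KRT8, EPCAM, CDH1 and PAX8 among them, whereas KRT7 and FOXA2 had none in any. Of 11 genes of other cell types, such as PTPRC of leukocytes and DCN of fibroblasts, 0 had a peak in any sample. Of 11 genes that respond to estrogen in other settings, CCND1, XBP1, NRIP1 and RARA had a peak in all 4 samples, and the other 7, with GREB1, PGR and TFF1 among them, had none. No promoter of these lists was found only in the Pool 2 samples or passed the test for a difference in H3K27ac enrichment. The median log2 difference was -0.08 over the 10 epithelial genes tested and -0.13 over the 4 estrogen-responsive genes tested, compared with -0.01 over all regions.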

How the data were processed

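H3K27ac and RNAPII ChIP-seq of the 8 samples, 4 per antibody, was analysed from the table of 23 regions and from the peak lists that the authors deposited. The authors aligned single-end reads to hg19 with bowtie (1.1.2 in the submitters' processing notes), removed duplicates with SAMtools, took the coverage of each region from bedtools and deposited a signal normalized for total depth and then for the average depth in overlapping peaks of the antibody. The peak lists, for which the submitters' notes name MACS2 2.1.0.20140616, were deposited with the fold enrichment of each peak (a ratio) and the -log10 of its p-value, and each sample has its own list. All 47 columns of the table map to a sample or a group of the labels.

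Each column moves in steps of a fixed size, and 100 percent of its values lay within 0.02 of a whole number of steps, so that steps were read as reads. Total depth is not given in the sources used here, and reads in the 23 regions give counting error only. Before fitting, a pseudocount was added, equal to the lowest nonzero signal (H3K27ac 0.00415, RNAPII 0.00395), and log2 was taken, which understates changes of low regions. The fits were made with limma 3.58.1 (R 4.3.3), with 1 mean per construct and pool over all 20 samples of an antibody, and the adjusted p is that of Benjamini and Hochberg across all 23 regions. Ratios in the text are ratios of mean signals. The log2 fold enrichment of merged peaks found in all 4 samples was compared with limma after centring on each sample's median. Alternatives were another pseudocount, a minimum of reads, other scaling, fewer samples, a replicate block, a term for the peak-name number, stricter peaks and leaving out each sample. Peaks were shared when they overlapped by at least 1 bp, and regions were named by the nearest protein-coding start site in GENCODE 44 mapped to hg19. The interval arithmetic and searches were run in Python 3.11.15. Each fit and search was tested on simulated data.

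The regions named are the 6 sites, the promoters and any region called. Of peaks in 1 group only, the 5 with the highest mean fold enrichment and those within 250 kb of a site were eligible to be named. The sites, the gene lists and the search for gRNA matches were chosen with earlier results of these data known. A replicate number shared by 2 groups was not taken to pair the samples (correlation of the replicate differences 0.10 for H3K27ac and -0.40 for RNAPII over 23 regions). A correlation over so few regions cannot exclude a pairing. In the H3K27ac samples compared, the replicate number went with the peak-name number. The fit with a replicate block is given in the last section. PECAM1 of the list of other cell types matched no gene of the annotation and was left out. A gene of the epithelial list is not reported here.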

Additional observations from a re-analysis of the deposited data

Results flagged for a closer look

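The HA data lie outside the comparison of H3K27ac and RNAPII. They held peaks, not listed in the control samples, in regions that no gRNA was designed for. The GTF2IRD1 region had an HA fold enrichment of 17.4 and 16.9 in the samples with gRNAs for all ERBSs, and the EIF5 region had 11.9 and 12. No HA peak was listed in either region in the samples with gRNAs for the adjacent regions or for IL1RN. An HA peak in at least 1 of the samples with gRNAs for all ERBSs was listed at 211 of the 767 H3K27ac regions found in Pool 2 only. The same held for 11130 of the 14955 regions in both Pool 2 samples. One in both of those HA samples was listed at 47 of the 767, and this was not counted for the 14955. The lists hold only peaks above a minimum, so a weaker signal in the control samples would not be seen in them.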

How the results depend on the processing

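The count of H3K27ac regions called was 0 under 10 of 12 alternatives. It was 6 with the peak-name number as a term and 5 with the replicate block (FHL2-1, MMP17-1, CISH-2 and MMP17-2 higher, with limma adjusted p of 0.00111, 0.00671, 0.016 and 0.0208, and the IL1RN promoter lower), and leaving out 1 sample gave 0 to 0. The RNAPII count was 0 under all alternatives, leaving out 1 sample and the block included, as was the count for the difference between constructs. In the peak lists, 414 H3K27ac regions were found in Pool 2 only when no IL1RN peak within 1 kb was allowed, and 1462 to 7999 without 1 sample. The IL1RN-only count was 8 with a -log10 p of at least 20, 30 with an overlap of 50 percent of the shorter peak, and 31 to 3107 without 1 sample. For RNAPII, 3 regions were in Pool 2 only with the overlap of 50 percent, and 6 to 2712 without 1 sample, and the IL1RN-only count was 11104 to 16499 without 1 sample. Peak enrichment calls numbered 0 to 2562 for H3K27ac and 0 to 429 for RNAPII without 1 sample, where a lone sample is assumed to vary like the other group, and 25 for RNAPII with the replicate block. When a Pool 2 sample was left out of the RNAPII fit, the IL1RN pair was kept as 2 samples. Of the 13 regions followed, 8 kept their sign for H3K27ac under every alternative and 10 for RNAPII, and the cause of other changes was not tested. The planned edgeR fit on the recovered reads was not run, because 23 values per library were judged too few to treat the recovered reads as deposited counts.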
